A study of Mus musculus with 24 samples.

Results

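RNA of mouse mammary tumours given the combination of ORIN1001 and docetaxel was compared with RNA of tumours given vehicle. The comparison holds 6 input libraries, 3 per group, of the 24 libraries of the series. It covers every gene and every transposable element (TE) name with enough counts in these 6 libraries, which were 16649 of 53465 gene rows and 1042 of 1146 TE names. The tumours were of the 2153L line, a genetically engineered, p53-knockout mouse model of triple-negative breast cancer. Fragments were grown in cleared mammary fat pads of female BALB/c mice aged 6 to 8 weeks, hosts with an intact immune system. Treatment began near a tumour volume of 100 mm3. Combination mice received ORIN1001, an inhibitor of the ribonuclease of IRE1α, at 150 mg/kg by daily gavage. They also received docetaxel, a taxane that stabilises microtubules, at 10 mg/kg by weekly intraperitoneal injection. Vehicle mice received neither drug, and the p53 knockout is common to both groups. Each library is labelled a biological replicate of bulk tumour cells, so host immune, stromal and vessel cells are in the RNA beside the tumour cells. All tumours descend from 1 transplanted line, and duration of treatment is not given in the sources used here.

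IRE1α senses protein that has failed to fold in the endoplasmic reticulum. Its ribonuclease splices the mRNA of the transcription factor XBP1, which drives genes of protein folding, translocation and degradation, and it cuts some further mRNAs, which are then lost (regulated IRE1-dependent decay, RIDD). The study asked how this activity bears on double-stranded RNA, much of which comes from transposable elements, in taxane-treated tumours. Double-stranded RNA is sensed by cytosolic receptors that induce type I interferon. Interferon-gamma comes mainly from T cells and natural killer (NK) cells. It acts on genes with a gamma-activated site in their promoters, and through the coactivators CIITA and NLRC5 on the genes of MHC class II and class I.

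Promoters are shown for genes that rose together in the combination tumours, because the interferon-gamma and MHC genes led the comparison. The 4 sequences are from RefSeq on GRCm38.p6, the assembly also called mm10. Each runs 5′ to 3′ on the strand of the gene, from 250 bases before the start of the transcript to 50 bases after it. Capitals mark matches, on either strand, to TTCNNNGAA (the gamma-activated site), to the site of interferon regulatory factors (GAAA, 2 bases of any kind, GAAA), to the core of the X box of MHC class II promoters (AG, any base, AAC, 3 bases of any kind, TG) and to ATTGG (the core of the Y box). No match overlapped another in these sequences.
Cxcl9, chr5:92328030-92328329, minus strand: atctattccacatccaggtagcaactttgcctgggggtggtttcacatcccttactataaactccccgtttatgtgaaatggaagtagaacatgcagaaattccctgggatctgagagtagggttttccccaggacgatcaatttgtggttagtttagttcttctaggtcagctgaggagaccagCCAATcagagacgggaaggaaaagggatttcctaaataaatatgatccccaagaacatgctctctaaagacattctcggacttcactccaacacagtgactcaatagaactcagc
Serpina3g, chr12:104235897-104236196, plus strand: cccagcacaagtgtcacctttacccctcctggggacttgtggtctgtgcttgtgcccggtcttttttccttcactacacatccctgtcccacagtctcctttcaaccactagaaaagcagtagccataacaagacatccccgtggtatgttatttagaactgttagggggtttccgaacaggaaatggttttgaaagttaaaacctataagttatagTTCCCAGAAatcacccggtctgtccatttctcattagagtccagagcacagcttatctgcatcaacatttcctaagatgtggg
H2-Eb1, chr17:34305617-34305916, plus strand: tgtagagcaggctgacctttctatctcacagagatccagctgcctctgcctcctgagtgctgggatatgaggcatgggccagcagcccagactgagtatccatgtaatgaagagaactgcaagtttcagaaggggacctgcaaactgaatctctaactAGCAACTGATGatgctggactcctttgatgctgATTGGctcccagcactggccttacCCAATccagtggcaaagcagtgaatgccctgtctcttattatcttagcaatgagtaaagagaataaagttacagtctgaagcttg
H2-Aa, chr17:34287774-34288073, minus strand: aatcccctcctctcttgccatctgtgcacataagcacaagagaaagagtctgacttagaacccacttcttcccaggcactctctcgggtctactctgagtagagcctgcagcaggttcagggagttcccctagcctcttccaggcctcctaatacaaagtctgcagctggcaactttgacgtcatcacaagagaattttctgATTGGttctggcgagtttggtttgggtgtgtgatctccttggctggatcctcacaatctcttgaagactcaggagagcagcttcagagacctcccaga
The promoter of Serpina3g held 1 gamma-activated site. That of H2-Eb1 held 1 X box and 2 Y box cores, and those of H2-Aa and Cxcl9 held 1 Y box core each. Of the interferon-gamma-induced genes tested, 22 had a promoter in the table, and 12 of these held a gamma-activated site. Such a site stood in the promoters of 8.19% of the 11071 genes tested that had one, and in 8.30% of all 32851 promoters. The site was found in 1 of 8 MHC class II genes and in 2 of 17 MHC class I genes tested that had a promoter, and in none of the 5 called of either list. An X box core was found in none of the 17 MHC class I genes and in 3 of 8 MHC class II genes tested that had a promoter, against 4.26% of genes tested and 4.18% of all promoters. The Y box core stood in 6 of these 8 and in 12 of the 17 MHC class I genes, against 42.3% of genes tested and 37.4% of all promoters. A site of interferon regulatory factors was found in 12 of 22 interferon-gamma-induced genes, 5 of 17 MHC class I genes and 1 of 8 MHC class II genes, against 3.95% of genes tested and 3.44% of all promoters. H2-DMa had 2 promoters in the table. Ciita and Nlrc5 were not matched. These matches are descriptions of sequence and not measured binding.

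Gene counts per library were 28.2 to 34.8 M in vehicle (M, 1000000 counts) and 11.9 to 15.7 M in combination tumours. Spearman correlations were 0.981 to 0.985 within vehicle, 0.972 to 0.990 within the combination and 0.929 to 0.976 between groups. The composition of the libraries differed with treatment. TE names took 13.3% ± 2.24 (SD, n = 3) of all counts in vehicle and 23.5% ± 5.28 (SD, n = 3) in the combination, ribosomal RNA loci 1.03% ± 0.114 against 2.23% ± 1.17 of gene counts, and mRNAs of ribosomal proteins 3.00% ± 0.168 against 1.98% ± 0.509. Combination replicate 2 stood apart from the other 5 libraries, with 29.5% TE names, 3.56% ribosomal RNA and 1.46% ribosomal protein mRNAs. It also had the highest score on the first principal component, 91.6 against 18.1 and 43.1 in the other combination libraries and -63.9 to -40.7 in vehicle. Epithelial markers were present in every library, with Krt8 at 310 to 511 CPM (counts per 1000000 counts of the library, after TMM scaling) and Trp63 at 120 to 224 CPM. These markers, like the counts of Ifng, Ngp and Ly6g below, were chosen after their values were seen. Trp53 was counted at 67.3, 64.3 and 55.6 CPM in vehicle and at 46.0, 27.0 and 34.9 CPM in the combination. These are whole-gene counts, so the label of a knockout cannot be checked on the deleted exons, and host cells carry an intact gene.

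**Figure D1:**
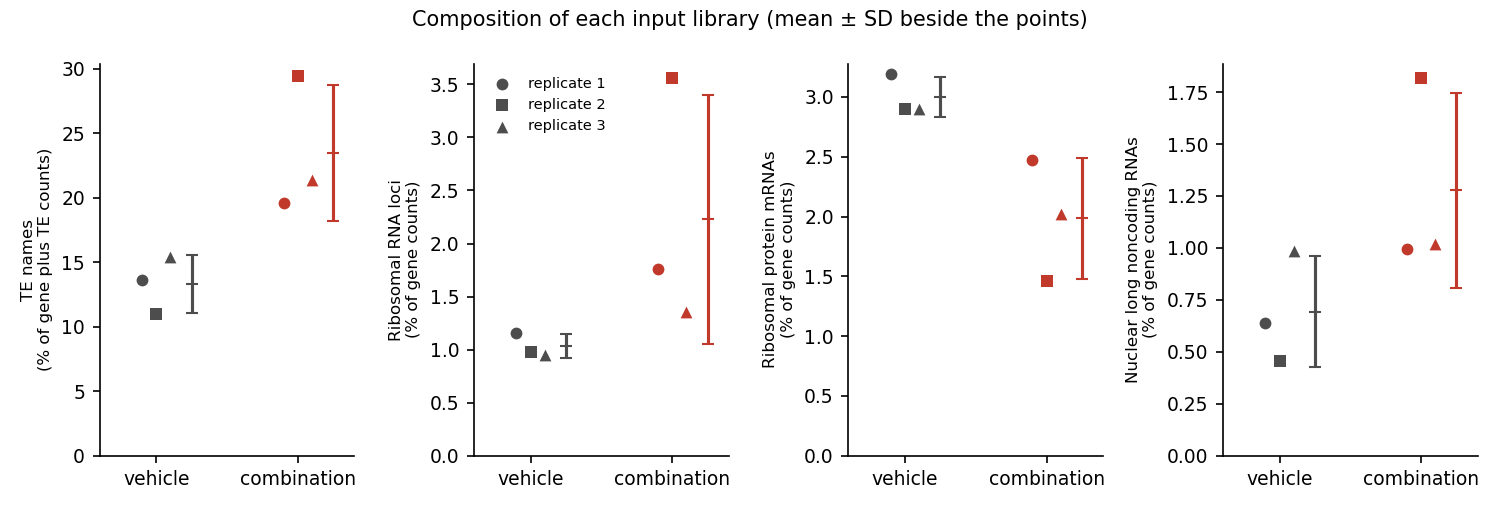
Share of counts taken by TE names, ribosomal RNA loci, mRNAs of ribosomal proteins and nuclear long noncoding RNAs in each library, in percent; points are libraries, shapes replicates, and bars mean ± SD of 3. All 3 combination libraries lie above the vehicle libraries for TE names and ribosomal RNA and below them for ribosomal protein mRNAs, with combination replicate 2 the most extreme.

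Genes of the interferon-gamma response, antigen presentation, T cells and NK cells were higher in the combination. Genes of glycolysis, ribosomes, the respiratory chain and the XBP1 programme were lower. In edgeR's quasi-likelihood test with Benjamini-Hochberg adjustment, 3124 of 16649 genes (18.8%) passed an adjusted p of 0.05. Of these, 1853 rose (11.1%) and 1271 fell (7.63%). Changes over 2-fold were more often rises, with 1371 up and 491 down. Groups did not overlap in 8022 genes (48.2%), among them 3122 of the called genes. The median log2 fold change over all genes was -0.01, and it is the level against which each gene list below can be read.

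Calls rested on the full set of 6 libraries. The number of genes called was 683, 276 and 134 without vehicle replicate 1, 2 and 3, and 3982, 1119 and 0 without combination replicate 1, 2 and 3, by edgeR. In the last case 5495 genes had an unadjusted p under 0.05, and the same test with all 6 libraries gave 6661. Every call of a gene among the 6 libraries below therefore ends without combination replicate 3. Sizes are given for most of the genes named, and library values for some of them. With library totals as the only scaling, rises made up 70.6% of calls, against 59.3% with TMM.

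**Figure D2:**
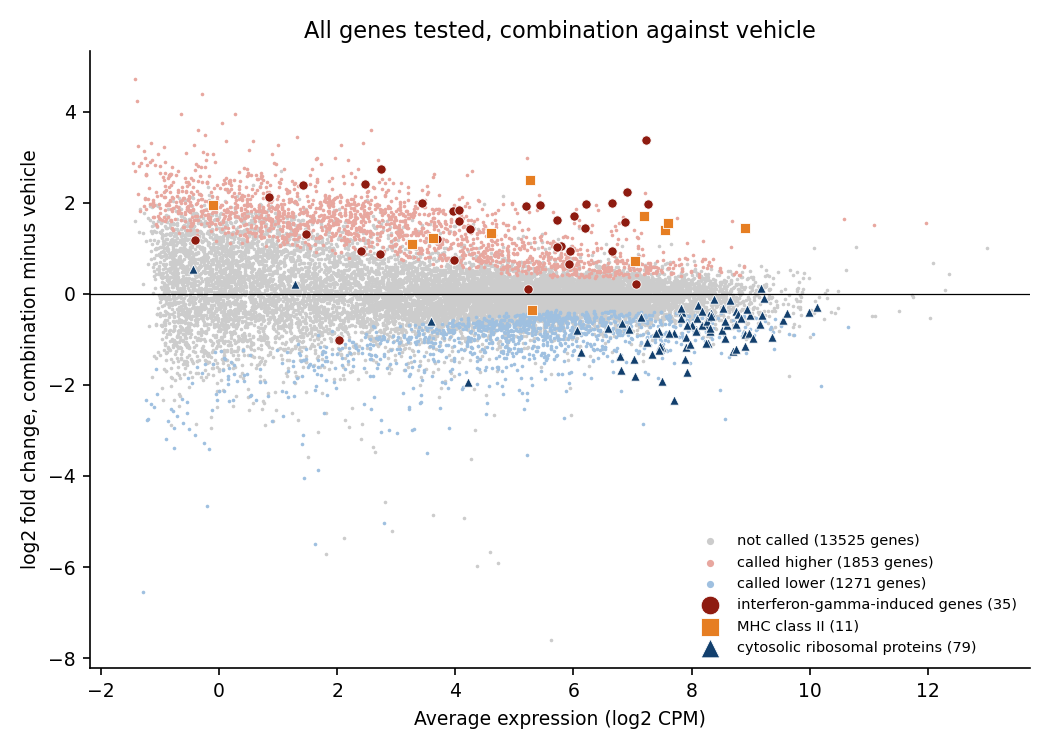
log2 fold change of each gene tested, combination minus vehicle, against its average expression in log2 CPM; colours mark genes called higher or lower and 3 gene lists. Most interferon-gamma-induced and MHC class II genes lie above 0, and most mRNAs of ribosomal proteins lie below it.

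Interferon-gamma-induced genes rose in the combination tumours. Of 35 tested, 20 rose and none fell, and 34 had a log2 fold change above 0 with a median of 1.60. Cxcl9, a chemokine that draws T cells through the receptor CXCR3 (chr5:92321331-92328079), stood at 50.3, 12.9 and 16.0 CPM in vehicle and at 367, 209 and 247 CPM in the combination. The groups did not overlap, and vehicle replicate 1 was the highest of its group. Its log2 fold change was 3.38 ± 0.53 (SE, adjusted p = 0.0190), a mean 10.4 times that of vehicle. Serpina3g, an interferon-inducible protease inhibitor whose promoter is shown above, rose by 1.83 ± 0.32 (adjusted p = 0.0225). Gbp8, one of the guanylate-binding GTPases of cell-autonomous defence, rose by 2.74 ± 0.48, from 3.17, 0.868 and 1.28 CPM to 9.06, 13.2 and 13.2 CPM.

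Vehicle replicate 1 carried more interferon-induced RNA than the other vehicle libraries. The summed level of the 36 listed interferon-gamma-induced genes was 1440 CPM there, 560 and 605 CPM in the other vehicle libraries and 2280 to 2772 CPM in the combination. Without that library 28 of 35 genes rose with a median of 2.23. Without vehicle replicate 2 or 3, 4 and 0 genes rose (medians of 1.36 and 1.36). The numbers without combination replicate 1, 2 and 3 were 14, 8 and 0, with medians of 1.34, 1.70 and 1.62. Ifng itself had 0 to 12 counts per library and was not tested.

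Genes of MHC class II, which presents peptides to CD4 T cells, rose as a group, with 8 of 11 higher, none lower and a median of 1.41. Ciita, the coactivator of class II genes (chr16:10480014-10531064), was at 18.1, 7.63 and 9.13 CPM in vehicle and at 50.0, 77.0 and 70.7 CPM in the combination. Its change was 2.51 ± 0.34 (adjusted p = 0.0155), and no combination library came near the vehicle range. H2-Eb1, the beta chain of the I-E molecule, was at 103, 52.4 and 49.0 CPM against 193, 210 and 267 CPM, a rise of 1.71 ± 0.29 (adjusted p = 0.0221). H2-Aa, the alpha chain of I-A, rose by 1.41 ± 0.26, and Cd74, the invariant chain, by 1.44 ± 0.25. H2-DMa, part of the peptide exchanger, went from 17.3, 13.4 and 10.7 CPM to 32.9, 31.0 and 40.5 CPM. The summed level of the 12 listed genes was 543 to 958 CPM in vehicle and 1541 to 2171 CPM in the combination. Without vehicle replicate 2 or 3, 1 and 0 genes were called, with medians of 1.31 and 1.25.

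For MHC class I and peptide loading, 7 of 20 genes rose, none fell and the median was 0.77. The summed level of the 20 listed genes overlapped, at 2728 to 4953 CPM in vehicle and 3980 to 5563 CPM in the combination. Nlrc5, the coactivator of class I genes, was at 68.5, 26.0 and 31.6 CPM in vehicle and at 171, 237 and 190 CPM in the combination (log2 change 2.24 ± 0.35, adjusted p = 0.0190). Tap1 and Tap2, which form the peptide transporter, rose by 1.66 ± 0.34 and 1.00 ± 0.23. Tapbp, the tapasin that bridges the transporter to class I molecules, rose by 1.02 ± 0.22. H2-Q7, a nonclassical class I gene, rose by 1.50 ± 0.37 (adjusted p = 0.0350). Without vehicle replicate 1, 11 class I genes were called, and without vehicle replicate 2 or 3, 1 and 0. The H2 genes are near-identical copies, so reads may be split among them.

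**Figure D3:**
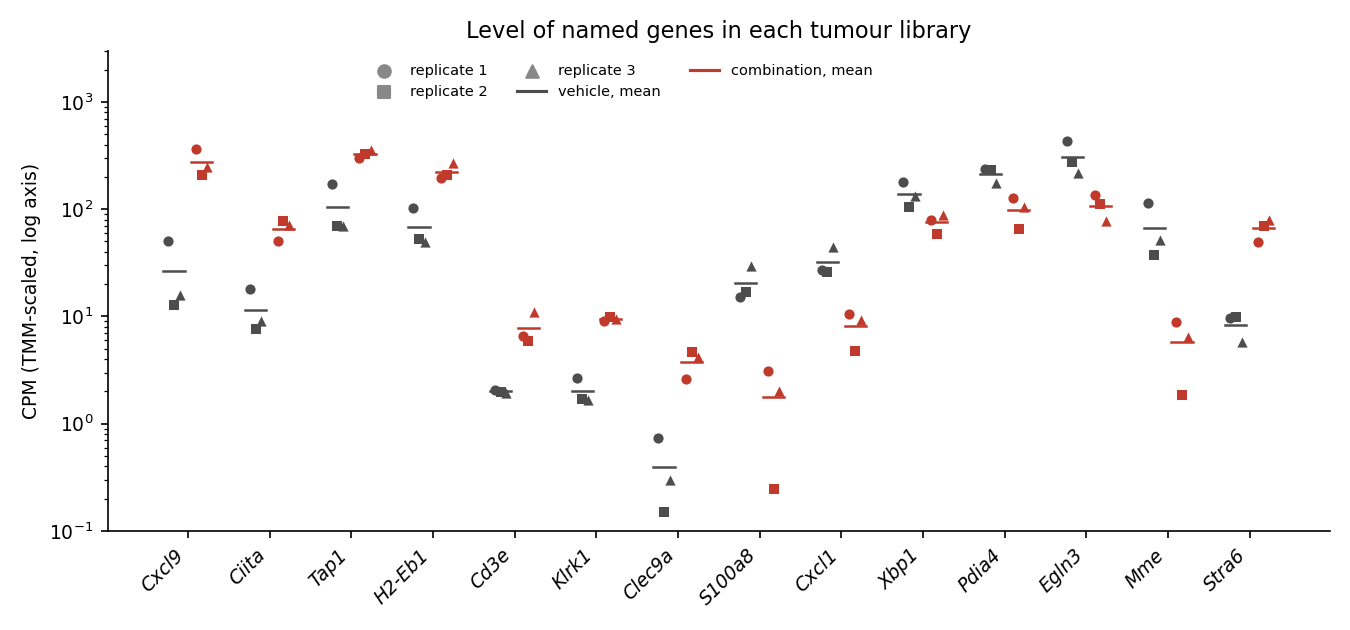
Level of 14 named genes in each library, in CPM on a log axis; shapes are replicates and lines group means. For Cxcl9, Ciita, Tap1, H2-Eb1, Cd3e, Klrk1, Clec9a and Stra6 the 3 combination libraries lie above the vehicle libraries, and for S100a8, Cxcl1, Xbp1, Pdia4, Egln3 and Mme they lie below.

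Markers of T cells and of cytotoxic and NK cells were higher in the combination tumours. In bulk RNA, more cells of a type and more RNA per cell cannot be told apart. Of 14 T cell markers 6 rose and none fell, with all 14 above 0 and a median of 1.43. Cd3e, a chain of the T cell receptor complex, stood at 2.08, 1.97 and 1.95 CPM in vehicle and 6.51, 5.85 and 11.03 CPM in the combination (1.96 ± 0.31, adjusted p = 0.0190). The receptor chains Cd3d and Cd247 and the surface glycoprotein Cd6 rose by 1.74 to 1.87. The summed level of the 14 markers was 30.7 to 39.0 CPM in vehicle and 56.7 to 77.3 CPM in the combination, with no marker at 0 in all libraries. No T cell marker was called without vehicle replicate 2 or 3, and 1 without vehicle replicate 1. Among cytotoxic and NK cell genes 3 of 9 rose. Klrk1, the activating receptor NKG2D, was at 2.66, 1.71 and 1.68 CPM in vehicle and at 9.06, 9.84 and 9.51 CPM in the combination (2.23 ± 0.26, adjusted p = 0.0128). Nkg7, a protein of cytotoxic granules, and Tbx21, the transcription factor T-bet, rose by 1.88 ± 0.32 and 2.05 ± 0.40. The summed level of 12 B and plasma cell markers was low in both groups, at 3.56 to 7.99 CPM in vehicle and 2.52 to 4.94 CPM in the combination. Among the 3 tested, Jchain rose by 1.90 ± 0.39 and Derl3 changed by -2.24 ± 0.55.

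Chemokines and receptors of T cells moved with the T cell markers. Of 10 tested, 6 rose and none fell. Cxcl10 and Cxcl11, further ligands of CXCR3, rose by 1.61 ± 0.35 and 1.98 ± 0.40. Cxcl16, the ligand of CXCR6, was at 61.4, 78.7 and 63.0 CPM against 138, 148 and 149 CPM (1.10 ± 0.13, adjusted p = 0.0128). Of the immune checkpoint receptors and ligands, 5 of 14 rose and none fell, with a median of 1.25. The summed level of the 16 listed genes overlapped, at 190 to 348 CPM in vehicle and 201 to 304 CPM in the combination, and Lgals9, Cd276 and Btla, none of them called and singled out after their values were seen, made up most of it in each library. Lag3, an inhibitory receptor that binds MHC class II, was at 2.88, 3.89 and 2.38 CPM in vehicle and 11.8, 20.2 and 14.5 CPM in the combination (2.34 ± 0.29, adjusted p = 0.0129). Havcr2, the receptor TIM-3, rose by 1.55 ± 0.19, and Cd274, the ligand PD-L1, by 1.21 ± 0.27. Cd86, a costimulatory ligand on antigen-presenting cells, rose by 1.30 ± 0.26, and Tigit by 1.70 ± 0.42.

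Of 10 dendritic cell markers 3 rose and none fell. Clec9a, a receptor for dead-cell actin on cross-presenting dendritic cells, had 0.729, 0.150 and 0.302 CPM in vehicle and 2.62, 4.63 and 4.15 CPM in the combination (3.28 ± 0.56, adjusted p = 0.0221). Itgax, the integrin CD11c, was at 40.3, 35.2 and 29.6 CPM against 85.1, 75.8 and 88.9 CPM (1.25 ± 0.14, adjusted p = 0.0128). Of 18 monocyte and macrophage markers 6 rose and none fell, with 12 above 0 and a median of 0.62. Their summed level overlapped, at 902 to 1135 CPM in vehicle and 928 to 1342 CPM in the combination. Ccr2, the receptor that brings monocytes into tissue, rose by 1.61 ± 0.23, Adgre1 (F4/80) by 0.97 ± 0.20 and Csf1r, the receptor of the macrophage growth factor, by 0.68 ± 0.19. Its ligand Csf1 rose as well, from 96.9, 98.7 and 104 CPM to 162, 174 and 178 CPM (0.78 ± 0.10, adjusted p = 0.0135).

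Several neutrophil genes fell. Of 10 tested, 3 fell and 1 rose, with a median of -0.83. S100a8 and S100a9 encode the calcium-binding pair calprotectin. S100a8 was at 15.1, 16.8 and 29.8 CPM in vehicle and at 3.12, 0.244 and 2.01 CPM in the combination (-3.50 ± 0.64, adjusted p = 0.0239), with combination replicate 2 the lowest. S100a9 changed by -2.96 ± 0.64 and Cd177, a neutrophil surface glycoprotein, by -3.88 ± 0.80. A further 5 markers had too few counts for the test. Among these Ngp had 25, 12 and 50 counts in vehicle and 1, 0 and 1 in the combination, and Ly6g, the defining surface marker, had 4, 2 and 5 against 0, 0 and 0. These counts are not scaled for depth. Gene counts per library were lower in the combination, at 11.9 to 15.7 M against 28.2 to 34.8 M. The marker that rose was Ltf, lactotransferrin, which mammary epithelium also makes and which is on the luminal list too, at 33.5, 28.5 and 23.4 CPM against 122, 63.3 and 126 CPM (1.87 ± 0.27, adjusted p = 0.0172). Because of Ltf the summed level of the 15 markers overlapped, at 100.3 to 160 CPM in vehicle and 94.4 to 174 CPM in the combination. Cxcl1, a chemokine that draws neutrophils through CXCR2, was at 27.4, 25.7 and 44.0 CPM against 10.5, 4.80 and 9.27 CPM (-1.98 ± 0.33, adjusted p = 0.0212). Csf3, the growth factor of granulocytes, changed by -1.19 ± 0.28. Il33, an alarmin, was at 133, 2.57 and 3.66 CPM in vehicle and 0.650 to 1.13 CPM in the combination. Vehicle replicate 1 alone was high, and the difference did not pass the test (adjusted p = 0.0503).

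Few type I interferon-stimulated genes passed the test. Of 49 tested, 1 rose and 1 fell, with a median of 0.41, and 4.08% were called against 18.8% of all genes. The gene that fell was Ifi27, a mitochondrial interferon-induced protein, at 72.1, 57.7 and 53.7 CPM against 33.8, 26.3 and 35.4 CPM (-0.94 ± 0.17, adjusted p = 0.0230). This count turned on 1 library. The summed level was 4238 CPM in vehicle replicate 1, 1933 and 1702 CPM in vehicle replicates 2 and 3, and 2868 to 3810 CPM in the combination. Without vehicle replicate 1, 23 of 49 rose, 1 fell and the median was 1.05. A test of the difference between the lists was not made.

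Of 26 genes of double-stranded RNA sensing tested, 2 rose and 3 fell, with a median of 0.12. That is 19.2% called, close to the 18.8% of all genes. Oas1b, a member of the 2′-5′-oligoadenylate synthetase family by name, rose by 0.93 ± 0.21. The ubiquitin ligase Trim25, which acts on RIG-I, rose by 0.49 ± 0.13. The call of Trim25 was lost in each of the 6 fits without 1 library. Irf3, the transcription factor downstream of the sensors, was at 32.2, 33.5 and 32.8 CPM against 23.6, 20.6 and 22.4 CPM (-0.57 ± 0.13, adjusted p = 0.0305). Ticam1, the adaptor of TLR3, changed by -0.67 ± 0.17, and Adarb1, an editor of double-stranded RNA, by -0.57 ± 0.12. Zbp1, a sensor of Z-form nucleic acid, is given here because of its part in cell death, after its values were seen. It stood at 65.4, 23.8 and 19.3 CPM in vehicle and 67.1, 34.8 and 54.9 CPM in the combination, and did not pass the test (0.53 ± 0.46, adjusted p = 0.409). Without vehicle replicate 1 its change was 1.27 (adjusted p = 0.0549).

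Genes of the inflammasome and pyroptosis, a lytic death by gasdermin pores, were partly higher, with 6 of 13 up, none down and a median of 0.65. Gsdmd, the gasdermin cut by inflammatory caspases, was at 10.2, 9.46 and 5.74 CPM against 17.7, 26.3 and 20.4 CPM (1.34 ± 0.27, adjusted p = 0.0260). Aim2, a sensor of cytosolic DNA, rose by 1.55 ± 0.28. Naip2 and Naip5, receptors of bacterial proteins, rose by 1.13 ± 0.19 and 1.93 ± 0.36, and Nlrp1b by 1.52 ± 0.32. Nlrp3 and Gsdme, named after their values were seen, did not pass the test. Nlrp3 was at 5.76, 5.51 and 7.21 CPM against 9.21, 9.35 and 10.4 CPM (adjusted p = 0.0586), without overlap. Gsdme, a gasdermin cut by caspase-3, was at 2.08, 1.44 and 1.17 CPM against 1.70, 0.732 and 0.549 CPM (-0.65 ± 0.48, adjusted p = 0.336). Leukocytes express most of the genes that rose. Some markers of T cells, NK cells, dendritic cells and macrophages rose in the same libraries, while 3 of 10 neutrophil markers tested fell and 1 rose. The part of leukocytes in the result was not tested.

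The target of ORIN1001 and its transcripts were read at the level of the whole gene, so Xbp1 splicing was not measured. Ern1, which encodes IRE1α, was at 51.7, 45.1 and 60.2 CPM in vehicle and 49.1, 61.9 and 52.5 CPM in the combination, a change of 0.06 ± 0.15 (adjusted p = 0.796) with overlapping groups. Xbp1 (chr11:5520641-5525993) was at 180, 105 and 133 CPM against 79.1, 59.1 and 87.5 CPM, a change of -0.89 ± 0.22 (adjusted p = 0.0366). This call was lost in 5 of 6 fits without 1 library, all but that without combination replicate 1, with log2 changes of -1.06 to -0.67 over the 6 fits. The other 8 sensors and factors of the unfolded protein response tested, Ern1 among them, did not pass the test.

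Of 48 IRE1-XBP1 targets in folding, translocation and degradation 13 fell and none rose, with a median of -0.41. Pdia4, a disulfide isomerase, was at 239, 231 and 175 CPM in vehicle and 127, 65.6 and 105 CPM in the combination (-1.12 ± 0.24, adjusted p = 0.0293). Manf, a secreted stress protein, was at 116, 103 and 95.1 CPM against 70.4, 52.7 and 70.0 CPM (-0.70 ± 0.15, adjusted p = 0.0280). P4hb, another isomerase, changed by -0.72 ± 0.16, the translocon-associated subunit Ssr4 by -1.37 ± 0.31 and the signal peptidase subunit Spcs2 by -0.60 ± 0.13. Their calls ended without any 1 vehicle library or combination replicate 3: none of the list was then called, with medians of -0.50 to -0.43. Of 11 reported RIDD substrates, which an inhibitor of the ribonuclease would spare, 2 rose and 1 fell. Itgb2, a leukocyte integrin, and Tapbp are the risers, and Ergic3 the one that fell. In the ATF4 and CHOP arm 2 of 22 rose and 4 fell. Phgdh, the entry enzyme of serine synthesis, was at 36.9, 47.1 and 30.0 CPM against 97.5, 107 and 107 CPM (1.45 ± 0.17, adjusted p = 0.0128). Atf3 rose by 0.70 ± 0.19, while Vldlr changed by -1.03 ± 0.20, Cebpb by -0.61 ± 0.12 and Pck2 by -0.74 ± 0.16. The call of Atf3 was lost in each of the 6 fits without 1 library.

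**Figure D4:**
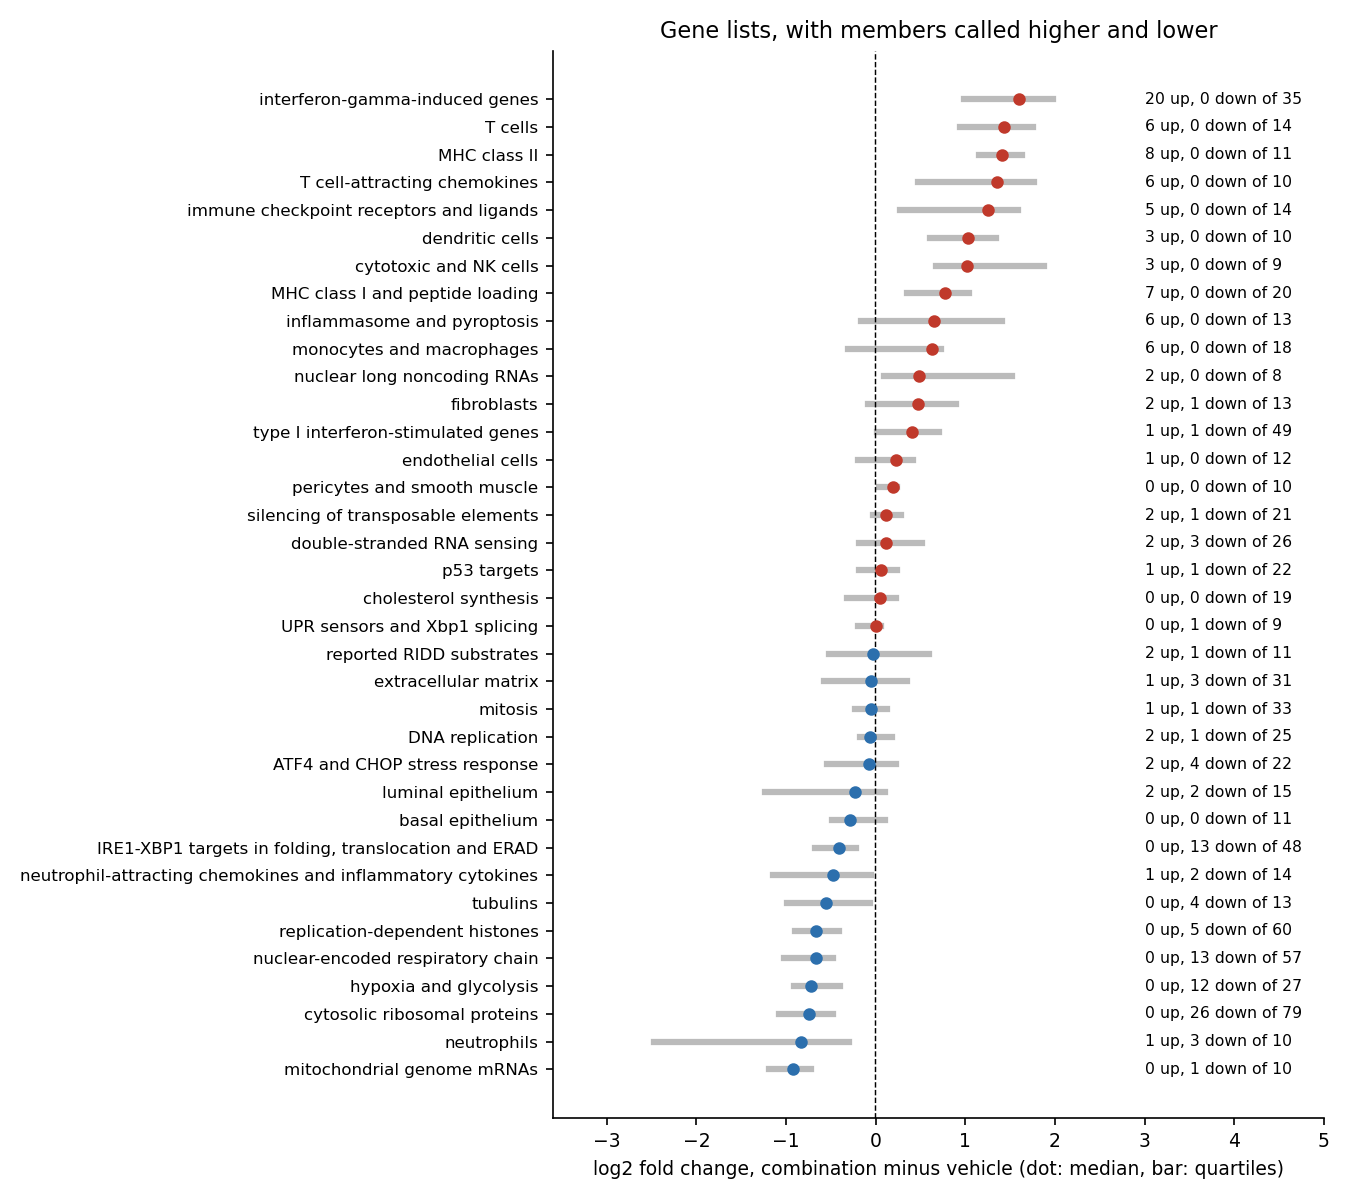
Median log2 fold change, combination minus vehicle, of each gene list with at least 8 genes tested; bars span the quartiles, the dashed line is the median of all genes, and the numbers give members called higher and lower. Interferon-gamma, MHC class II and T cell lists stand at the top and ribosomal, neutrophil and mitochondrial lists at the bottom.

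Genes of hypoxia and glycolysis were lower, with 12 of 27 called lower, none higher and a median of -0.72. Egln3, a prolyl hydroxylase induced by hypoxia, was at 436, 273 and 218 CPM against 134, 112 and 78.2 CPM (-1.51 ± 0.29, adjusted p = 0.0249). Hk1, the hexokinase that starts glycolysis, was at 263, 198 and 199 CPM against 133, 88.1 and 112 CPM (-0.99 ± 0.18, adjusted p = 0.0241). Aldoa, Pgk1 and Pgam1, enzymes of later steps, changed by -1.20 ± 0.23, -0.90 ± 0.18 and -0.87 ± 0.17. Without vehicle replicates 1, 2 and 3, 2, 0 and 1 of the genes were called, and the medians were -0.51, -0.65 and -0.78.

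Of 79 mRNAs of cytosolic ribosomal proteins 26 fell and none rose, with a median of -0.74. Rps26, a protein of the small subunit, was at 394, 350 and 293 CPM against 127, 21.3 and 56.4 CPM (-2.34 ± 0.54, adjusted p = 0.0318), and Rps19 changed by -0.78 ± 0.18. Without combination replicate 1, 60 of the 79 were called, and 16 without combination replicate 2 and 0 without any 1 vehicle library. Ribosomal protein genes have many processed copies, so their counts are uncertain. Of 57 nuclear-encoded respiratory chain genes 13 fell and none rose, with a median of -0.66. That count was 38 without combination replicate 1 and 1 without each vehicle library. Ndufv3, a subunit of complex I, was at 68.9, 72.6 and 60.1 CPM against 37.0, 25.8 and 28.6 CPM (-1.14 ± 0.16, adjusted p = 0.0167). Of 13 tubulins 4 fell and none rose, with Tubb6 at -0.99 ± 0.24, Tuba4a at -1.48 ± 0.39 and Tubb4b at -0.94 ± 0.27. Replication-dependent histones had a median of -0.66, with 5 of 60 lower and none higher, a share of 8.33% against 7.63% of all genes called lower. DESeq2 called 22 of 68 histones lower and limma-voom 31 of 60, and the edgeR count was 32 of 61 without combination replicate 1 and 0 without any 1 vehicle library.

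Over protein-coding genes the change moved with the length of the gene. Genes spanning under 5 kb had a median of -0.33, with 67 of 1444 higher and 238 lower, and the median rose to 0.03 in genes over 100 kb, with 189 of 1747 higher and 130 lower. Spearman's rho across 13120 genes was 0.18, and genes are not independent replicates. Among the combination libraries the short genes deviated most in replicate 2, by -0.48, against -0.21 and -0.26 in replicates 1 and 3. Gene models without a RefSeq match went the other way, with 689 of 2052 higher, 40 lower and a median of 1.10. They supplied 689 of the 1853 rises. Protein-coding genes gave 990 rises and 1171 falls of 13120. Of 8 nuclear long noncoding RNAs tested 2 rose and none fell, with 6 above 0 and a median of 0.49. The summed level of the 11 listed overlapped, at 4769 to 10086 CPM in vehicle and 9714 to 17506 CPM in the combination. The risers, Kcnq1ot1 and Xist, changed by 1.64 ± 0.42 and 1.51 ± 0.41. Xist was at 2051, 5383 and 2271 CPM in the combination against 1186, 739 and 1482 CPM in vehicle. These shares, like those of ribosomal RNA and TE names, move with the falls of ribosomal protein, respiratory chain and histone mRNAs above, and their part in them was not tested.

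Few proliferation genes were called. Docetaxel blocks dividing cells in mitosis. Of 33 mitosis genes 1 rose and 1 fell (median -0.05). Espl1, the separase that frees sister chromatids, was at 81.2, 80.6 and 77.6 CPM against 112, 163 and 128 CPM (0.75 ± 0.15, adjusted p = 0.0253), and Ccnb2, a mitotic cyclin, changed by -0.48 ± 0.11. Of 25 replication genes 2 rose (E2f1 and Pola1) and 1 fell (Tk1). Pola1 was called in none of the 6 fits without 1 library. Among 22 p53 targets, in tumours labelled p53 knockout, Pmaip1 (NOXA, a death-promoting BCL-2 family member) rose by 1.22 ± 0.27 and Rps27l changed by -1.26 ± 0.34. None of the 19 cholesterol synthesis genes was called. For the silencing of transposable elements, Setdb1, a histone H3 lysine methyltransferase, was at 108, 121 and 119 CPM against 87.9, 86.9 and 92.6 CPM (-0.38 ± 0.10, adjusted p = 0.0410). This call was lost in each of the 6 fits without 1 library (adjusted p = 0.0561 to 0.104). Atf7ip, the partner of Setdb1, rose by 0.64 ± 0.18 and Pphln1, a subunit of the HUSH complex, by 0.51 ± 0.15. The other 18 genes of that list were not called. That is 14.3% called, against 18.8% of all genes.

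Of 15 luminal epithelium markers 2 rose and 2 fell. Cldn4, a tight-junction claudin of luminal epithelium, was at 156, 199 and 183 CPM in vehicle and 420, 371 and 421 CPM in the combination (1.17 ± 0.13, adjusted p = 0.0128). Epcam, the epithelial adhesion molecule, was at 872, 1266 and 986 CPM against 723, 367 and 602 CPM (-0.88 ± 0.26, adjusted p = 0.0497), and Prlr, the prolactin receptor, changed by -1.48 ± 0.36. Krt19, a luminal keratin, was at 288 CPM in vehicle replicate 1 and at 2.30 and 1.48 CPM in the other vehicle libraries. It stood at 0.244 to 0.894 CPM in the combination and was not called (adjusted p = 0.0571). No marker of basal epithelium or of pericytes was called. Of 13 fibroblast markers 2 rose and 1 fell, with a median of 0.47. That is 23.1% called, against 18.8% of all genes. Their summed level was 353 to 382 CPM in vehicle and 464 to 875 CPM in the combination, without overlap. Fap and Postn, marks of activated fibroblasts, rose by 1.32 ± 0.26 and 1.34 ± 0.28. Pdgfra, a receptor of resident fibroblasts, changed by -1.20 ± 0.27, and the matrix proteins Fbln2 and Tnc by -1.02 ± 0.17 and -1.27 ± 0.34. In the list of 31 extracellular matrix genes 1 rose and 3 fell (12.9% called), with a median of -0.05.

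The largest changes were ranked among called genes whose groups did not overlap and whose average was at least 1 CPM. Gene models, pseudogenes and small RNAs were left out. Scube3 had the largest rise of this set. Scube3, a secreted glycoprotein (chr17:28142100-28174851), was at 1.35, 0.928 and 0.537 CPM in vehicle and 8.50, 14.8 and 10.7 CPM in the combination, a change of 3.59 ± 0.39 (adjusted p = 0.0128). Stra6, the cell-surface receptor of retinol-binding protein (chr9:58063793-58154004), was at 9.63, 9.81 and 5.77 CPM against 49.5, 69.8 and 79.7 CPM (2.98 ± 0.26, adjusted p = 0.0108). It stayed called in each fit without 1 library except that without combination replicate 3. Irx4, an Iroquois homeobox factor, Ntrk3, the receptor of neurotrophin-3, and Mgat3, which adds the bisecting residue to N-glycans, rose by 3.31 ± 0.46, 3.28 ± 0.68 and 2.95 ± 0.28. The matricellular protein Smoc2 rose by 2.73 ± 0.35 and the complement protease C1s2 by 2.68 ± 0.34. Sectm1b and Brinp2 rose by 3.44 ± 0.81 and 3.36 ± 0.41.

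Mme, the membrane peptidase neprilysin (chr3:63295211-63383713), was at 113, 37.3 and 51.9 CPM in vehicle and 8.92, 1.87 and 6.46 CPM in the combination, a change of -3.54 ± 0.59 (adjusted p = 0.0210). Comp, a cartilage matrix protein, had the largest fall of the same set of called genes, from 10.7, 2.30 and 3.39 CPM to 0.142, 0 and 0.183 CPM (-5.50 ± 0.90). Saa2, an acute-phase protein, changed by -4.04 ± 0.56 and Alkal2, a ligand of the receptor ALK, by -3.29 ± 0.68. Slc28a3, a transporter that takes up nucleosides, changed by -3.07 ± 0.84, and Atp6v0a4, a subunit of the proton pump, by -2.99 ± 0.30. Sh2d4a and the ribosomal protein retrogene Rps27rt changed by -3.11 ± 0.73 and -3.04 ± 0.60. Itih2, a hyaluronan-binding serum protein, changed by -5.03 ± 1.32, but vehicle replicate 1 held 33.0 CPM and the others 2.15 and 3.25 CPM. Without that library its change was -2.81 (adjusted p = 0.0740). Its call was lost in each of the 6 fits without 1 library (adjusted p = 0.0503 to 0.101).

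TE names rose across families. Of the TE names scaled together with the genes, 814 of 1042 rose and 8 fell (78.9% called, 78.1% higher and 0.768% lower), with a median log2 fold change of 1.09. Genes in the same fit had a median of -0.05. The TE share of counts was 13.6%, 10.98% and 15.4% in vehicle and 19.6%, 29.5% and 21.4% in the combination. No libraries overlapped, and the difference of 10.1 percentage points had an exact two-sided permutation p of 0.1, the smallest that 3 against 3 can give. Without combination replicate 2, the highest, the difference was 7.13 points. With the single-drug libraries in the fit, the number of TE names called was 0 with all 12 input libraries and 844 without docetaxel replicate 3, a library that stands apart in its ribosomal RNA. In M counts the TE table held 4.30 to 5.57 in vehicle and 3.43 to 4.96 in the combination, so the higher share went with a lower total of gene counts.

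Medians of the families lay close together, from 0.74 to 1.33, apart from satellites and RNA-derived repeats at -0.05. The young L1Md elements, some of which can still move, had 6 of 6 names higher and a median of 0.74. Older L1 and Lx names had 112 of 124 higher and a median of 1.15, and DNA transposons, long immobile in the mouse, had 159 of 177 higher and a median of 1.27. B1 SINE names were all higher (15 of 15, median 0.92), as were 4 of 5 B2 and B3 names. Without vehicle replicate 2 the counts were 9 of 15 and 1 of 5. IAP, an active family of endogenous retroviruses, had 13 of 25 higher and a median of 0.89. That count was 5 without vehicle replicate 2 (median 0.68) and 5 without combination replicate 2 (median 0.56). MERVL, MT, ORR1 and MLT names had 115 of 127 higher and a median of 1.25.

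Single names are given next. B3, the SINE with the most counts, was at 7014, 5051 and 8343 CPM in vehicle and 11045, 19958 and 13075 CPM in the combination (1.11 ± 0.32, adjusted p = 0.0162). The next most counted SINE names, RSINE1, ID_B1, B4A, B3A, B2_Mm2 and B1_Mus1, rose by 0.89 to 1.27, with combination replicate 2 the highest for each. 7SK, a nuclear RNA counted among the repeats, was at 9229, 9142 and 8394 CPM against 10269, 9122 and 5823 CPM (adjusted p = 0.765). The largest rises by the naming rule were Eulor6E at 2.48 ± 0.48, LTR77 at 2.32 ± 0.66, MER97c at 2.30 ± 0.43, MER68-int at 2.29 ± 0.51, LTR84a at 2.17 ± 0.42 and X5A_LINE at 2.10 ± 0.45. All 6 are old repeats with few counts. Of the 8 falls LTR37-int led, at 17.9, 25.8 and 15.3 CPM against 8.59, 5.14 and 6.14 CPM (-1.57 ± 0.28, adjusted p = 0.0135). RNERVK23-int, ERVB4_1B-LTR_MM, RLTR30D_RN, MamRep564 and RLTR6C_Mm changed by -1.07 to -0.52.

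The direction for TE names depended on the scaling. Where TE names were scaled on the TE table alone, which sets the change of a typical name near 0, 20 rose and 117 fell with a median of 0.01. On that scale a fall means a smaller change than that of the typical TE name. RSINE1, ID_B1, B2_Mm2 and B1_Mus1 were then at -0.087, -0.20, -0.20 and -0.21. Ribosomal RNA, many gene models without a RefSeq match and 2 of 8 nuclear long noncoding RNAs tested were higher in the same libraries. The labels do not say whether reads of TE copies within introns or gene ends were left out of these counts, and the part of such reads was not tested.

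**Figure D5:**
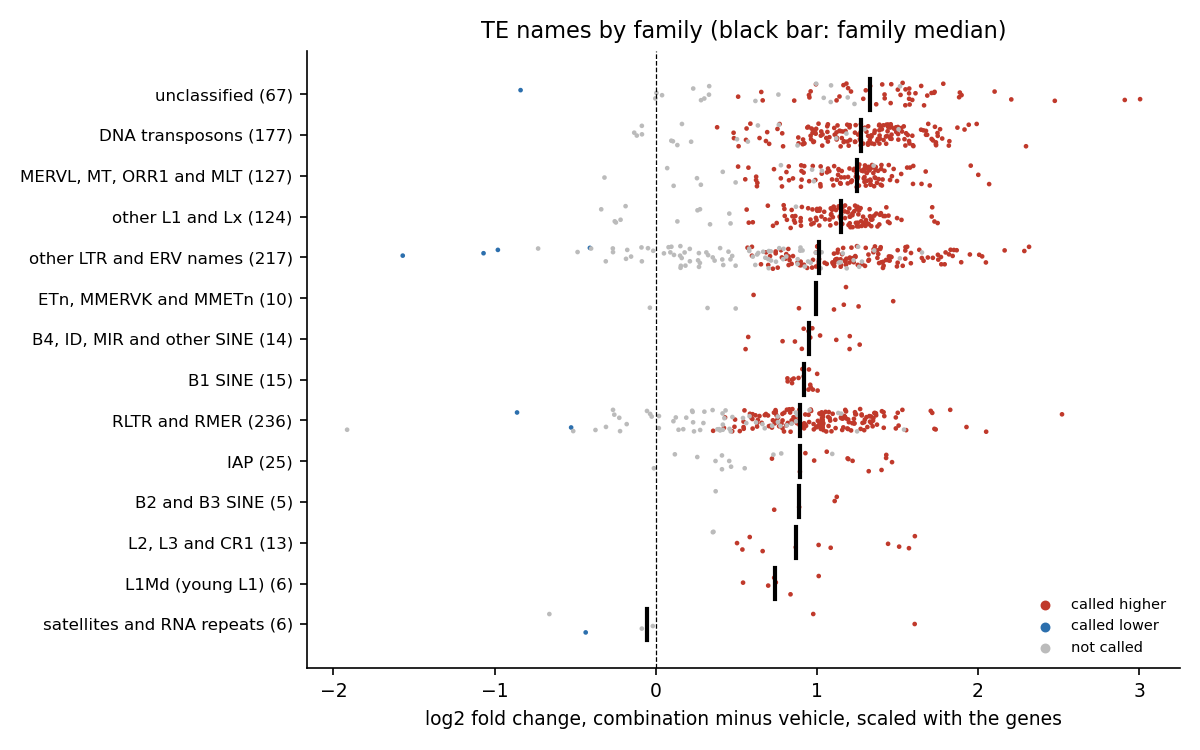
log2 fold change of each TE name tested, combination minus vehicle, scaled with the genes, by family; each point is a name, coloured by its call, and the black bar is the family median. Family medians lie between 0.74 and 1.33, with satellites and RNA repeats at -0.05.

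The levels of several named genes, picked with their values known, were set beside those of the single drugs in a fit of all 12 input libraries. Docetaxel replicate 3 had 3.27 M gene counts and 68.4% ribosomal RNA, so differences from docetaxel are also given without it. Cxcl9 was at 180 to 316 CPM in the combination, 41.2 to 72.3 CPM with ORIN1001 and 0 to 9.88 CPM with docetaxel. It was higher in the combination than with ORIN1001 by 2.04 ± 0.56 (adjusted p = 0.0380) and than with docetaxel by 5.23 ± 0.67 (adjusted p = 0.0205), or 5.04 ± 0.68 (adjusted p = 0.0108) without docetaxel replicate 3. Ciita differed by 2.17 ± 0.41 from ORIN1001 (adjusted p = 0.0167) and by 2.65 ± 0.44 from docetaxel (adjusted p = 0.0205), or 2.71 ± 0.47 (adjusted p = 0.0108) without docetaxel replicate 3. Cd3e differed by 2.26 ± 0.57 and 2.58 ± 0.63, and Lag3 by 2.94 ± 0.36 and 1.83 ± 0.37. Without docetaxel replicate 3 the differences from docetaxel were 2.47 ± 0.61 for Cd3e and 1.68 ± 0.32 for Lag3, with both still called (adjusted p = 0.0181 and 0.0108). S100a8 was lower than with ORIN1001 by a log2 change of -3.68 ± 0.73 and than with docetaxel by -2.62 ± 0.72 (adjusted p = 0.0191 and 0.0491), the latter -2.91 ± 0.55 (adjusted p = 0.0108) without docetaxel replicate 3. Mme was at 1.60 to 7.69 CPM in the combination and 5.81 to 11.3 CPM with docetaxel, against 65.4 to 76.5 CPM with ORIN1001. Its difference from docetaxel was -0.38 ± 0.53 (adjusted p = 0.723), or -0.21 ± 0.53 (adjusted p = 0.806) without docetaxel replicate 3, and from ORIN1001 -3.80 ± 0.53 (adjusted p = 0.00975). Irx4 likewise differed from ORIN1001 by 3.56 ± 0.59 (adjusted p = 0.0147) and from docetaxel by 0.13 ± 0.55 (adjusted p = 0.923), or 0.10 ± 0.56 (adjusted p = 0.912) without docetaxel replicate 3. A p that misses the threshold does not show that these levels are alike. Xbp1 was at 129 to 160 CPM with ORIN1001 and 50.7 to 75.6 CPM in the combination, a difference of -1.15 ± 0.25 (adjusted p = 0.0224), and its difference from docetaxel was -0.71 ± 0.26 (adjusted p = 0.110), or -0.44 ± 0.22 (adjusted p = 0.162) without docetaxel replicate 3.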

How the data were processed

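The authors deposited whole-number counts for genes in 1 table and for TE names in another. The submitters' processing notes name mm10, featureCounts 2.0.3, STAR 2.7.3a and fastp 0.23.2, with no role or order. Per the labels' protocols, a strand-specific kit that depletes ribosomal RNA was used on total RNA. How strand and reads with several alignments were handled, and which TE annotation was used, is not given in the sources used here. Overlapping, antisense and multi-copy genes therefore carry uncertain counts. A symbol was found for 53274 of 53465 gene rows.

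The 6 libraries were fitted alone in edgeR 4.0.16 (R 4.3.3) with TMM, filterByExpr (minimum count 10, minimum total 15) and the two-sided quasi-likelihood test, adjusted over all genes by Benjamini-Hochberg at 0.05. The standard error is the size of the log2 fold change divided by the root of F. TE names were fitted on a joint table with the genes and adjusted over TE names. DESeq2 1.42.0, limma 3.58.1 (voom), other scalings and filters, a replicate block, fits with the single-drug libraries, and fits without each library were alternatives. The procedure was tested on simulated data. Genes named are the 12 largest rises and falls (adjusted p under 0.05, average log2 CPM of at least 0, groups that do not overlap, no gene models, pseudogenes or small RNAs), up to 5 genes per list taken in order of p, and Ern1, Xbp1 and Trp53. For TE names, the 6 largest in each direction and the most counted were named. Gene lists, naming rule and comparison were chosen with earlier results of these data known. Replicates differed by more than counting noise, with a chi-square of at least 11.5 per degree of freedom for each pair within a group. None was therefore a plain re-sequencing of another library of its group. That does not show that each came from a separate tumour. Some genes within the naming rule are not reported here.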

Additional observations from a re-analysis of the deposited data

How the results depend on the processing

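The number of genes called moved with the tool and the libraries. DESeq2 called 4813 genes and limma-voom with sample quality weights 6123. The count of genes called was 848 with all 12 input libraries in the fit, and 5180 without docetaxel replicate 3. Over the fits without 1 library it ran from 0 to 3982. Other scalings and filters gave 2784 to 3891, with the share of rises 70.6% by library totals and 48.3% with no filter, against 59.3%. With the replicate number as a block 486 genes and 542 TE names were called. Same-numbered libraries did not deviate together (correlations of -0.03, -0.19 and -0.04), and 0 of 6 libraries correlated best with their own number, so the numbers were not taken to pair the tumours. TE names called were 0 with all 12 input libraries (24 at an unadjusted p under 0.05), 844 without docetaxel replicate 3, 603 to 838 without 1 library, and 137 scaled on the TE table alone, where RSINE1, ID_B1, B2_Mm2 and B1_Mus1 turned to -0.087, -0.20, -0.20 and -0.21. The TE share of counts differed by 7.13 to 12.1 points without 1 library and kept its direction. Ern1, not called, turned to -0.027 with no filter and ran from -0.046 to 0.16 without 1 library. Of 137 genes named and called, 16 were called in 5 of the 6 fits without 1 library, 10 in 4 and 22 in 3. A further 54 were called in 2, 30 in 1 and 5 in none (Atf3, Itih2, Pola1, Setdb1 and Trim25). Of 19 TE names, 10 were called in all 6. The cause of these moves was not tested. Depths of 11.9 to 15.7 M in the combination limit what can be said of genes near 1 CPM.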
